A study of Rattus norvegicus with 47 samples.

Results

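Blood taken 3 h after occlusion of the middle cerebral artery (MCA) was compared with blood taken at 0 h, before the stroke, in spontaneously hypertensive rats (SHR). The comparison took in every sample labelled 3 h and every sample labelled 0 h, 16 of the 47 samples of the series, and all 27596 probe sets of the array. At 3 h the mRNA of neutrophil genes stood higher and that of B cell, T cell and antigen presentation genes lower. The largest single rise was that of Hp, which encodes haptoglobin, the plasma protein that binds free haemoglobin, at 9.01-fold. The largest fall was that of Ebf1, the transcription factor that sets B cell identity, at 5.57-fold.

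The rats were 8 males of 16 weeks, with no transgene or test compound named, and each gave blood at every time point except for 1 sample missing at 6 h. A silicon-coated thread closed the MCA through the internal carotid, and it was withdrawn under a second anaesthetic between the 1 h and 2 h samples, so the 3 h blood was reperfusion blood. The 0 h blood was drawn just before anaesthesia began. Both groups were drawn from the tail vein into heparin, and the plasma was removed. RNA came from the whole cell pellet and was hybridised to 1 gene array per sample. The 24 h blood, cited below for some genes, was drawn from the heart after an anaesthetic overdose. There was no sham group, so the stroke, the anaesthesia, the surgery, the repeated blood draws and the hour of the day cannot be told apart as sources of a change at 3 h. SHR are an inbred line with high blood pressure, and no other strain or sex was sampled.

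Whole blood RNA is a mixture. Neutrophils, the first responders among the white cells, leave the bone marrow within hours of stress hormones, IL-1 or G-CSF, while lymphocytes leave the circulation for spleen, marrow and lymph nodes under glucocorticoids. Platelets and young red cells add large amounts of their own few transcripts. The paper also used the same amount of RNA for each array, so a signal is relative to the other RNA of its sample. A lower signal can therefore mean fewer cells of a type, less RNA in each cell or more RNA from other cells. In bulk blood these cannot be told apart.

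All values are log2 RMA signals, so a difference of 1 is a doubling. Levels and SDs are the authors' means and SDs over n = 8 arrays at each of the 2 time points. A change is the 3 h mean minus the 0 h mean, given with the standard error of a moderated test after limma, and its p-value was adjusted by the Benjamini-Hochberg method over all 27596 probe sets. A probe set was called at an adjusted p below 0.05, and "rose" and "fell" are used here for called probe sets only. The levels of different probe sets are not compared, since each has its own binding. For that reason the label of blood was not checked by levels, and the marker lists of blood cells and of other tissues are given below by their changes.

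Of the 27596 probe sets, 7539 were called higher at 3 h (27.3%) and 5296 lower (19.2%). The calls higher were mostly small, with a median change of 0.25, and those lower larger, with a median of -0.41. With a change of at least 0.5 asked for as well, 919 were higher (3.33%) and 1949 lower (7.06%), so that 58.7% of all calls but 32.0% of the calls of this size were higher. The largest changes leaned the other way, with 330 probe sets up by at least 1 and 289 down by at least 1, and 48 up and 22 down by at least 2. The split among all calls moved with the scaling: 47.2% of them were higher once each column of means was centred on its median, and 52.4% after quantile normalization of the means.

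The balance of calls differed with signal. The probe sets were ranked by mean signal into 4 bands of 6899. In the weakest band 1724 were called higher and 278 lower, with a median change of 0.10, and in the next 2386 and 651, with a median of 0.11. In the third band the counts were 1907 and 1837, and in the brightest 1522 and 2530, with a median of -0.07. Of the calls with a change of at least 0.5, 139 came from the weakest band and 1523 from the brightest. The median change of all probe sets was 0.07, and the rises below are read against that. Whether weak probe sets took part in a change of the blood or of the array signal was not tested.

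**Figure D1:**
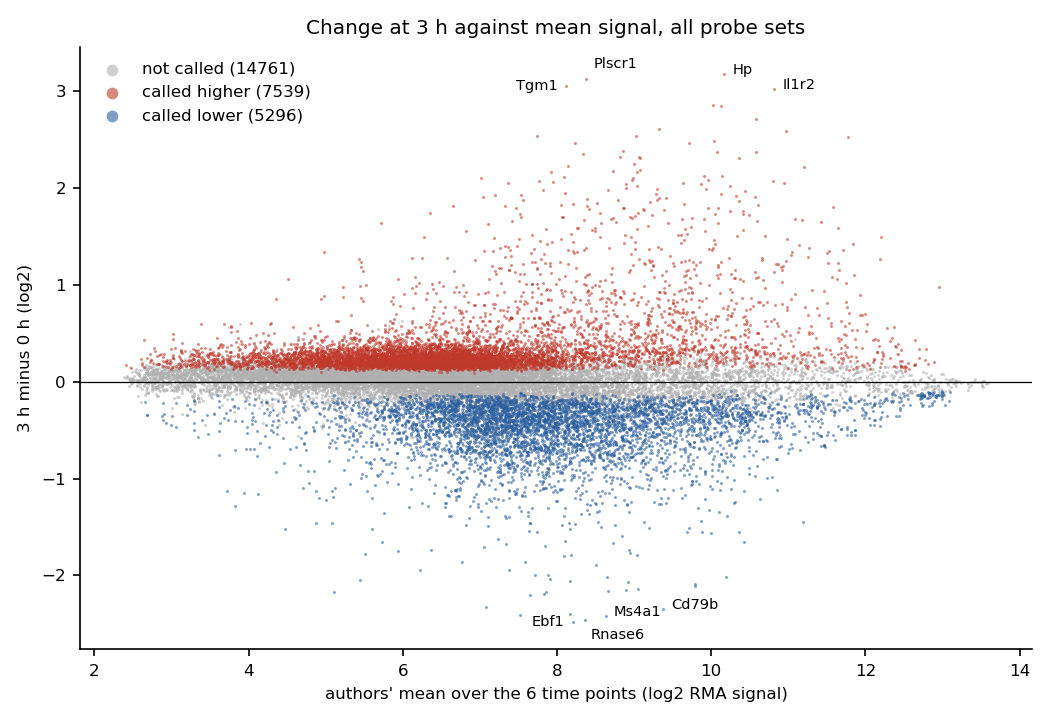
Change at 3 h (3 h minus 0 h, log2) against the authors' mean signal over the 6 time points (log2) for all 27596 probe sets, with the 7539 called higher in red, the 5296 called lower in blue and the rest in grey. The 4 largest rises and falls are named, and at weak signals red points just above 0 outnumber blue ones.

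The rise of Hp was from 8.24 ± 0.37 (SD, n = 8) at 0 h to 11.42 ± 0.21 at 3 h, a change of 3.17 ± 0.16 (SE), with an adjusted p of 9.15e-21. Plscr1, the phospholipid scramblase that moves lipids between the leaflets of the cell membrane and is itself interferon-induced, rose from 6.81 ± 0.20 to 9.93 ± 0.47, which was 8.75-fold. Tgm1, a transglutaminase that crosslinks proteins and is best known from the outer skin, rose from 6.60 ± 0.32 to 9.65 ± 0.44, or 8.28-fold. Each of these 3 genes was higher at 3 h than at 2 h, by 0.68 for Hp (adjusted p = 0.00926), 1.51 for Plscr1 (5.85e-09) and 1.89 for Tgm1 (7.76e-10). Of the 3, Tgm1 was also lower at 3 h than at 6 h, with a difference of -0.63.

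Il1r2, the decoy receptor that binds IL-1 without signalling, followed another course. It rose from 8.68 ± 0.27 to 11.70 ± 0.12, a change of 3.02 ± 0.14 (8.12-fold, adjusted p = 4.58e-22), but it had already stood at 11.64 at 2 h, and the step from 2 h to 3 h was 0.07 (adjusted p = 0.883). Fpr1, the neutrophil receptor for formylated bacterial and mitochondrial peptides, was at 9.90 ± 0.50 at 0 h and 12.42 ± 0.15 at 3 h, and its 2 h mean was 12.70, a 3 h minus 2 h difference of -0.28 that did not pass the test (adjusted p = 0.409). The SD of both genes was smaller at 3 h than at 0 h.

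Among the other genes with the 12 largest rises, Ifitm6, of the interferon-induced transmembrane family, rose by 2.86 and Cd33, a sialic acid-binding inhibitory receptor of myeloid cells, by 2.84. Serpinb1a, the cytosolic inhibitor of neutrophil elastase and related proteases, rose by 2.71, and Prok2, a secreted chemoattractant peptide abundant in neutrophils, by 2.58. Both went on climbing, with 3 h minus 6 h differences of -0.78 and -0.64 (adjusted p = 0.00604 and 0.00431). Nos2, the inducible nitric oxide synthase, rose from 7.77 ± 0.23 to 10.38 ± 0.16. Dgat2, which makes the last step of triglyceride synthesis, rose by 2.54. Ugt8, which makes the galactolipids of myelin, rose by 2.53, from 6.07 ± 0.31 to 8.60 ± 0.43.

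Most of the 12 largest falls among genes with a symbol were in B cell genes. Ebf1 went from 9.80 ± 0.17 at 0 h to 7.32 ± 0.26 at 3 h, a change of -2.48 ± 0.13 (adjusted p = 2.59e-20). Ms4a1, which encodes the B cell surface protein CD20, went from 10.14 ± 0.16 to 7.72 ± 0.28, 5.34-fold lower. Cd79b, a signalling chain of the B cell receptor, went from 10.91 ± 0.31 to 8.57 ± 0.22, 5.07-fold lower. For all 3 the 2 h mean lay within 0.14 of the 3 h mean, and the 3 h mean was below that at 6 h, with differences of -0.52 for Ebf1, -0.55 for Ms4a1 and -0.48 for Cd79b (adjusted p = 0.0157, 0.0118 and 0.0165).

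Further B cell genes were among the 12 largest falls. Fcer2, the low-affinity IgE receptor, fell by 2.32, Fcrla, an Fc receptor-like protein kept inside B cells, by 2.16, and Fcmr, the receptor for IgM, by 2.15. Cd79a, the partner of Cd79b, fell by 2.14, on a probe set it shares with Cd79al. Bank1, a scaffold of B cell receptor signalling, fell by 2.11, and Igd, the heavy chain of IgD on naive B cells, by 2.09. The remaining genes were Rnase6, an antimicrobial ribonuclease, which went from 10.06 ± 0.24 to 7.60 ± 0.39, Nrp1, a co-receptor for semaphorins and VEGF, which went from 9.24 ± 0.14 to 7.07 ± 0.18, and LOC501110, which went from 9.20 ± 0.31 to 7.01 ± 0.64. In all 24 genes the range of mean ± 1 SD at 3 h lay clear of that at 0 h.

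**Figure D2:**
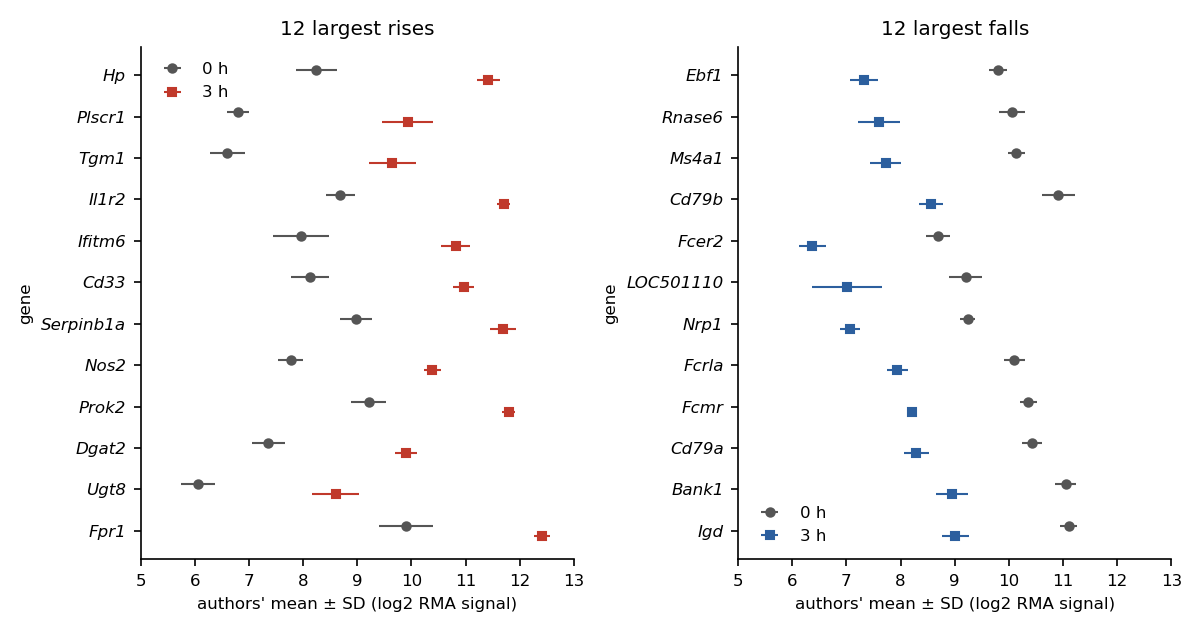
Authors' mean ± SD (log2 RMA signal, n = 8 arrays each) at 0 h (grey circles) and 3 h (coloured squares) for the 12 genes with the largest rise (left) and the 12 with the largest fall (right). The 0 h and 3 h bars do not meet in any of the 24 genes, and LOC501110 has the widest bar at 3 h, with an SD of 0.64.

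The marker lists of the blood cells divided by lineage, as the plot of gene lists shows. For each list the counts are of genes, 1 probe set each, or of probe sets where so stated. They stand against 27.3% called higher and 19.2% called lower over all probe sets. In the brightest band these shares were 22.1% and 36.7%, and in the weakest 25% and 4.03%. No list was compared with probe sets of like signal. The lists were described by these counts and medians, and no test was made of a list.

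Of 24 neutrophil genes, 22 rose and none fell, with a median change of 1.18. Mmp9, the gelatinase of neutrophil granules, rose from 8.57 ± 0.42 to 10.88 ± 0.19, 4.95-fold. Mcemp1, a membrane protein of mast cells and granulocytes, rose 4.19-fold. The rise reached the receptors that call neutrophils out of marrow and into tissue, Csf3r (1.31) and Cxcr2 (2.83-fold), the alarmins S100a8 (1.35) and S100a9 (1.26), and proteins of the secondary granules, Camp (1.44), Lcn2 (1.24) and Mmp8 (0.98), but Ltf, of the same granules, was at 0.02 and was not called. Mpo and Elane, of the primary granules made in marrow precursors, rose by 0.17 and 0.26. Cybb, the core of the NADPH oxidase, was at -0.22 and did not pass the test. After centring 21 rose and 1 fell, and after quantile normalization 21 rose and none fell.

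Of 20 B cell genes, 19 fell and none rose, with a median of -1.51 and a range from -2.48 to -0.13. Pax5, a transcription factor of the B lineage, was the gene that was not called, at -0.13 (adjusted p = 0.0875). Cd22, which restrains the B cell receptor, changed by -1.52. The smallest called changes were in Cd37 (-0.31) and Blk (-0.44).

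All 22 T cell genes fell, with a median of -0.89 and a narrower range, from -1.30 to -0.26. Cd4, the co-receptor of helper T cells, went from 10.67 ± 0.10 to 9.36 ± 0.35, 2.47-fold lower. Cd8b, of the co-receptor of killer T cells, went from 9.29 ± 0.17 to 8.03 ± 0.25, 2.40-fold lower. Cd5, an inhibitory receptor of T cells, fell by 1.15, and the chains of the CD3 complex by 0.92 (Cd3e), 1.02 (Cd3g) and 1.10 (Cd3d). Zap70, the kinase that the CD3 chains recruit, had the smallest change, -0.26.

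Of 17 genes of NK and cytotoxic cells, 13 fell and none rose, with a median of -0.55. Klrk1, the activating receptor NKG2D, fell by 1.11, Prf1, perforin, by 1.02, and Gzma, granzyme A, by 0.89. Ncr1, a receptor that marks NK cells, was at 0.02, Cd226 at -0.07, Klrg1 at -0.30 and Gzmb at -0.36, and none of these was called. The probe set of Gzmb is shared with Gzmbl2, and Gzmb is 1 of 2 genes of the lists that had probe sets called in opposite directions, with Il18bp as the other.

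The 16 monocyte genes went both ways, 7 up and 8 down. Vcan, the proteoglycan versican of inflammatory monocytes, rose from 9.39 ± 0.32 to 11.76 ± 0.34, 5.16-fold. Cd14, the co-receptor for endotoxin, rose 3.57-fold. Among the genes that fell, Cx3cr1, the fractalkine receptor, which NK and T cells also carry, went from 9.97 ± 0.18 to 8.52 ± 0.42 and Spn, leukosialin, which T cells also carry, from 10.80 ± 0.16 to 9.26 ± 0.16. Ly86, the partner of the Toll-like homologue Cd180 and also a B cell gene, fell by 1.78, and Adgre1, an adhesion receptor of macrophages, by 1.48. Csf1r, the growth factor receptor of the lineage, changed by -0.87.

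MHC class II genes, which present peptides to helper T cells and are made by B cells, monocytes and dendritic cells, fell in 9 of 10, with a median of -0.96. Cd74, the invariant chain, went from 12.18 ± 0.14 to 10.74 ± 0.17, 2.72-fold lower, and RT1-Da, an alpha chain, from 10.97 ± 0.12 to 9.54 ± 0.20, 2.70-fold lower. Ciita, the master regulator of the class, changed by -0.96. RT1-Bb was at 0.05 and was not called. For 2 of the genes the 3 h mean was above the 2 h mean, against 1.90% of all probe sets, and for 3 it was below the 6 h mean, against 2.34%.

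Genes of basophils, mast cells and eosinophils were divided, with 6 of 14 up and 5 down. Cd63, a granule membrane protein of many cells, rose by 1.68 and Siglec8, a sialic acid-binding receptor known from eosinophils and mast cells, by 1.67. Those that fell were the receptors Il5ra, for the eosinophil growth factor IL-5 (from 7.31 ± 0.21 to 5.58 ± 0.20), Ms4a2, the beta chain of the IgE receptor (-0.80), and Ccr3, the eotaxin receptor (-0.76), with Hdc, which makes histamine, at -0.42 and Fcer1a at -0.27. The list is thus a mixture. After quantile normalization 3 rose and 5 fell.

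Of 13 platelet genes 4 rose and none fell, and the abundant Pf4 and Ppbp, chemokines of the platelet granules, were at -0.02 and -0.07. Selp, P-selectin, stood out, with a rise from 6.70 ± 0.22 to 7.85 ± 0.23, 2.22-fold. Of 16 erythroid genes 5 rose and none fell, with a median of 0.12, and Alas2 (-0.04) and Ahsp (0.08) were not called. After centring, 2 platelet and 3 erythroid genes rose, and after quantile normalization 4 and 7.

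Lists of cells that blood should not hold were read by their changes only. Tissue carried over equally at 0 h and 3 h would not be seen in this way. Of 10 endothelial genes 6 rose, with a median of 0.16, of 11 genes of tail skin and muscle 5, with a median of 0.11, and of 12 brain genes 2, with a median of 0.10. None fell. The largest of these rises was 0.30, in Ptprb, an endothelial phosphatase. The counts were 3, 2 and 1 after centring and 2, 3 and 1 after quantile normalization. Of the brain genes, Gfap, of astrocytes, went from 6.89 ± 0.20 to 7.17 ± 0.23 and S100b from 5.79 ± 0.11 to 6.05 ± 0.20, while the neuronal Snap25, Nefl and Stmn2 were at 0.00, -0.02 and 0.01.

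**Figure D3:**
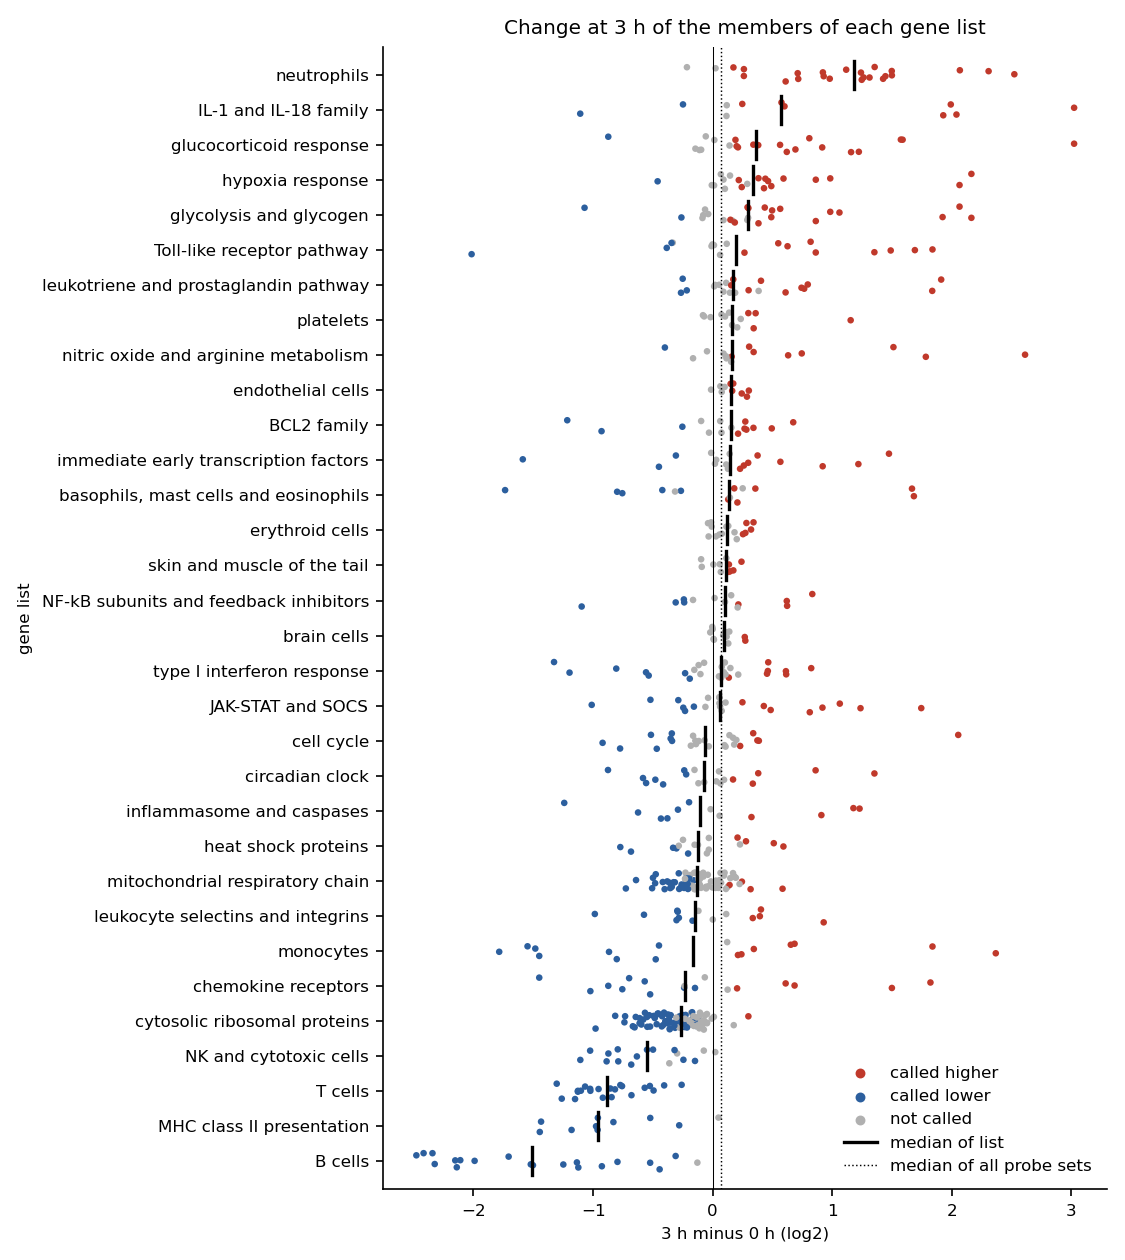
Change at 3 h (3 h minus 0 h, log2) of each measured member of the 32 gene lists, ordered by the median of the list (black bar), with called rises in red, called falls in blue, others in grey and the median of all probe sets as a dotted line. By list median, neutrophil genes lie furthest right and B cell genes furthest left. Il1r2 at 3.02 and Nos2 at 2.61, of other lists, lie further right than any neutrophil gene. Erythroid, endothelial, tail and brain genes lie close to the dotted line, as do platelet genes except Selp at 1.15.

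In the IL-1 and IL-18 family 7 of 11 genes rose and 2 fell. Beside Il1r2, which the glucocorticoid list also holds, Il18rap, the second chain of the IL-18 receptor, rose 4.11-fold, Il1rap, the shared accessory chain, 3.97-fold, and Il1r1, the signalling receptor, by 1.93. Il18r1, the first chain of the IL-18 receptor, and Il18 itself were both at 0.12 and were not called. The ligands Il1b (0.60) and Il1a (0.25) and the antagonist Il1rn (0.58) rose too. Il1rl1, the IL-33 receptor of mast cells and type 2 lymphocytes, fell by 1.11. The probe set shared by Il18bp, which traps IL-18, and Rnf121 fell by 0.25, although another probe set of Il18bp was called higher. This fall of 0.25 was not called under every setting given below. After quantile normalization 6 genes of the list rose and 1 fell.

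Of 18 probe sets of the Toll-like receptor pathway, 9 rose and 3 fell. Tlr2, for bacterial lipoproteins, rose from 7.94 ± 0.23 to 9.63 ± 0.28, 3.23-fold, and its partners moved with it, Tlr6 by 1.49 and the probe set shared by Tlr1 and Tlr10 by 1.35. Myd88, the adaptor, rose by 0.86 and Irak4, its kinase, by 0.82. Tlr4, the endotoxin receptor, was at 0.06 and Tlr7 at 0.01, neither called. Cd180, the Toll-like homologue of B cells, fell from 11.52 ± 0.21 to 9.50 ± 0.42, 4.04-fold.

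In the NF-kB list 4 of 13 genes rose and 4 fell, 30.8% each way beside 27.3% and 19.2% of all probe sets. Of the inhibitors and modulators of the IkB family, Nfkbiz rose by 0.83 and Nfkbia by 0.62. Bcl3, on a probe set shared with Ceacam16 and Ceacam19, rose by 0.62. Nfkbie fell by 0.24, a call not kept under every setting given below. The subunits Rel and Nfkb1 fell by 1.10 and 0.31, and Rela rose by 0.21. In the inflammasome list the sensors parted: Nlrp3 rose from 8.33 ± 0.14 to 9.56 ± 0.12, Mefv, pyrin, by 1.18 and Nlrc4 by 0.91, while Aim2, the DNA sensor, fell from 9.78 ± 0.17 to 8.53 ± 0.39. The probe set shared by Naip5 and Naip6 fell by 0.62, Casp4 by 0.43 and Casp1, the effector, by 0.38. In all, 4 of these 12 rose and 6 fell.

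The JAK-STAT and SOCS list, of the kinases and factors that cytokine receptors use and of the SOCS proteins that switch them off, had 8 of 22 up and 6 down. Socs3, which ends IL-6 and G-CSF signals, rose from 7.71 ± 0.16 to 9.45 ± 0.07, a change of 1.74 ± 0.10 (adjusted p = 1.20e-18). Stat3, the factor of the same receptors, rose from 9.26 ± 0.12 to 10.49 ± 0.12, 2.36-fold, and Osm, a cytokine of the IL-6 family, 2.09-fold. Stat4, of T and NK cells, fell by 1.01 and Socs2 by 0.52. Stat5b rose by 0.81 and its close relative Stat5a was at -0.06 and was not called.

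Cish, another SOCS-family gene that STAT5 induces, had its highest mean at 3 h. Its mean was 6.98 ± 0.22 before the stroke, 6.93 in the 1 h blood, 6.96 in the 2 h blood and 7.41 ± 0.16 in the 3 h blood, then 6.73 and 6.74 in the 6 h and 24 h blood. The 1 h and 2 h means lay within 0.05 of baseline, and the 6 h mean was below it. It was 0.43 above 0 h (adjusted p = 1.20e-05), 0.45 above 2 h (1.09e-04) and 0.68 above 6 h (5.53e-08). The bases before its start are shown because they hold STAT letters more than once. The RefSeq table of promoters on GRCr8 gives, at chr8:116850719-116850968 on the plus strand, the following 250 bases up to the start, 5′ to 3′, with matches to the STAT motif TTCNNNGAA, which reads the same on both strands, in capitals.

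Cish: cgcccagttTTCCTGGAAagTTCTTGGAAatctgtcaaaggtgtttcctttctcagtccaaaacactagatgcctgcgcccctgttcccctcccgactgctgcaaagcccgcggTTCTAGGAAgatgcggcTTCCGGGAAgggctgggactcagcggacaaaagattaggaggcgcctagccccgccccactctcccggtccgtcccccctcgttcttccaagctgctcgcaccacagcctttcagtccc

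The 4 matches, which do not overlap, began at bases -241, -230, -136 and -119 from the start. Of 33469 promoters of this length, 7.67% held at least 1 match, 0.418% at least 2 and 2 promoters at least 4. Of the 14 genes of the list with a promoter in the table, Cish and Socs1 held a match, Socs1 with 1, and Socs3 and Stat3, which rose more, held none in this window. A B cell motif was sought in the same way: TCCCNNGGGA, the letters of EBF, which also read the same on both strands and were in 0.738% of all promoters, were in 0 of the 12 B cell genes with a promoter. A match is a run of letters and not a shown site.

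Stress hormone and clock genes were in part called. In the glucocorticoid list 15 of 22 rose and 1 fell, with a median of 0.36. Beside Il1r2, Fkbp5, the chaperone that the glucocorticoid receptor induces, rose from 8.56 ± 0.22 to 10.14 ± 0.23, 2.98-fold, Sbno2 rose 3.01-fold, Anxa1, the anti-inflammatory annexin, by 1.22 and Dusp1, a MAP kinase phosphatase, by 1.16. Per1, a clock gene that glucocorticoids also induce, rose by 0.38. Tsc22d3 (-0.11) and Sgk1 (0.01), both among the best known targets, were not called at 3 h. Against 2 h, 5 genes of the list were lower in the 3 h blood, beside 1.62% of all probe sets. Cxcr4, the receptor that holds leukocytes in marrow, fell by 0.87.

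Of 19 clock genes, 5 rose and 7 fell. The rises were led by Usp2, a ubiquitin protease under clock control (from 6.33 ± 0.20 to 7.68 ± 0.13), and Nfil3, a repressor, which rose by 0.86 with SDs of 0.07 and 0.09. The falls included Bhlhe40, Arntl and Cry1, at -0.88, -0.58 and -0.56. Since 3 h had passed on the clock as well as after the stroke, the hour and the stroke cannot be told apart here.

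The interferon response did not move one way. Of 26 genes 7 rose and 7 fell, with a median of 0.07, the median of all probe sets. Ifit3 rose from 11.24 ± 0.17 to 12.07 ± 0.12 and Isg15 from 10.16 ± 0.29 to 10.78 ± 0.15, both proteins that interferon induces against viruses, while Mx1 and Mx2, GTPases of the same programme, fell from 10.44 ± 0.16 to 9.25 ± 0.28 and from 9.67 ± 0.14 to 8.35 ± 0.24. The scaling changed the counts, to 6 up and 7 down after centring and 9 up and 5 down after quantile normalization. Against 6 h, 14 of the 26 genes were higher in the 3 h blood and 1, Gbp2, was lower, beside 2.44% and 2.34% of all probe sets.

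In nitric oxide and arginine metabolism 8 of 15 genes rose and 1 fell. Around Nos2 (6.11-fold), Ass1, which rebuilds arginine from citrulline, rose from 7.44 ± 0.28 to 9.22 ± 0.33, Ddah1, which clears an inhibitor of nitric oxide synthases, from 7.85 ± 0.37 to 9.36 ± 0.10, and Slc7a2, an arginine transporter, by 0.74. Arg2 rose by 0.63, Arg1 was at 0.09 and was not called, and Gchfr fell by 0.40.

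Of 21 leukotriene and prostaglandin genes, 10 rose and 3 fell. Alox5ap, which presents arachidonic acid, rose from 9.21 ± 0.23 to 11.12 ± 0.08, Alox5, the lipoxygenase, from 8.43 ± 0.33 to 10.27 ± 0.25, and Ptger2, a receptor for prostaglandin E2, by 0.80. Lta4h, which makes leukotriene B4, rose by 0.77 and Ltb4r, its receptor, by 0.74. Ltc4s, which makes leukotriene C4, was at 0.11 and Ptgs1 at 0.19, neither called. Ptgs2, the inducible cyclooxygenase, rose by 0.61.

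In the hypoxia list 12 of 20 genes rose and 1 fell, and in the glycolysis and glycogen list, which shares members with it, 15 of 25 rose and 2 fell. Slc2a3, the high-affinity glucose transporter, rose from 7.54 ± 0.24 to 9.71 ± 0.31, 4.48-fold. The hexokinases Hk2 and Hk3 rose from 7.05 ± 0.22 to 9.11 ± 0.26 and from 5.92 ± 0.19 to 7.84 ± 0.16. Pygl, glycogen phosphorylase, rose by 1.06 and Hif1a, the hypoxia factor, by 0.59. The hypoxia targets Car9 (0.07), Bnip3 (0.10) and Egln1 (0.15) were not called. Pdk1, a kinase that holds pyruvate back from the mitochondria, fell by 0.46.

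Of 17 chemokine receptor probe sets 5 rose and 9 fell: Ccr1, of neutrophils and monocytes, rose by 1.82, and Ccr7, which brings naive T cells to lymph nodes, fell by 1.02. Of 14 selectin and integrin genes 4 rose and 7 fell, led by Itgam (0.93), the alpha chain of Mac-1, and Itga4 (-0.99), of lymphocytes and monocytes. Itgb7, a partner of Itga4 on lymphocytes, rose by 0.40.

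Of 17 immediate early genes 8 rose and 3 fell. Ier3 rose from 6.61 ± 0.25 to 8.09 ± 0.23, Jun, a subunit of AP-1, by 1.22 and Egr1 by 0.92, with an SD of 0.76 at 0 h, while Nr4a1, induced by antigen receptors, fell from 9.87 ± 0.16 to 8.28 ± 0.32. In the BCL2 family 7 of 15 rose and 3 fell, with Bcl2, the survival protein of lymphocytes, changing by -1.22 and Bcl2l1 by 0.67. Of 17 heat shock genes 4 rose and 5 fell. Dnaja1 rose by 0.59 and Hspa1a by 0.51, and the mitochondrial chaperones Hspe1 and Hspa9 fell by 0.77 and 0.68.

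Of 25 cell cycle genes 5 rose and 7 fell. Rrm2, the small subunit of ribonucleotide reductase, stood apart with a rise from 8.62 ± 0.27 to 10.68 ± 0.29, 4.15-fold, while the other rises of the list were at most 0.39, in Cdk1. The replication genes Mcm3, Pcna and Mcm7 fell by 0.92, 0.77 and 0.52. After quantile normalization 8 rose and 9 fell.

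Of 94 cytosolic ribosomal protein genes, which make the ribosome and are strongly expressed in naive lymphocytes, 60 fell and 1 rose, with a median of -0.26. The largest fall of the list was in Rpl22l1 (-0.98), and Rpl3 went from 11.56 ± 0.14 to 10.83 ± 0.18. The gene that rose was Rpl3l, a form known from muscle, at 0.30. Of 84 genes of the mitochondrial respiratory chain 28 fell and 4 rose, with a median of -0.13, and 15 fell after quantile normalization, 17.9% against 17.8% of all probe sets under that scaling. The 21 probe sets placed on the mitochondrial chromosome had a median change of -0.31, with 13 lower and 0 higher.

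Of the 6190 probe sets without a symbol, 23.8% were called higher and 12.7% lower, both below the shares of all probe sets.

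The place of 3 h in the course was taken from its neighbours. Against 2 h, 525 probe sets were higher at 3 h (1.90%) and 448 lower (1.62%), and against 6 h 674 were higher (2.44%) and 645 lower (2.34%). Few probe sets differed from 0 h, 2 h and 6 h in the same direction: 28 were higher at 3 h and 19 lower. They are called highest and lowest at 3 h here, although 1 h and 24 h were not part of this rule. These comparisons all use the 3 h arrays, so a chance deviation of the 3 h means enters every one of them.

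Among the genes highest at 3 h, Clec10a, a galactose-binding lectin of macrophages and dendritic cells, went from 6.81 ± 0.18 at 0 h to 8.21 ± 0.29 at 3 h, against 7.68 at both 2 h and 6 h. Il6st, the signalling chain gp130 shared by the IL-6 family of receptors, had a mean of 9.17 ± 0.16 before the stroke, then 9.21 (2 h), 9.75 ± 0.22 (3 h) and 9.24 (6 h). Its 2 h and 6 h means lay within 0.07 of baseline, and its 1 h and 24 h means were at -0.12 and -0.47. Erg, a transcription factor of endothelium and blood stem cells, rose by 1.62, from 6.28 ± 0.14 to 7.90 ± 0.25, and F3, tissue factor, the starter of coagulation, by 1.49, from 5.64 ± 0.27 to 7.13 ± 0.19. Both were already 1.12 and 1.03 above 0 h at 2 h.

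Among the genes lowest at 3 h, Ttc30b, of ciliary transport, was at 5.89 ± 0.19 at 0 h and 4.93 ± 0.45 at 3 h, a change of -0.95 ± 0.18. Timm21, of the mitochondrial import machinery, went from 7.61 ± 0.26 to 6.32 ± 0.26, and Ralgps2, an exchange factor for Ral GTPases, from 10.28 ± 0.18 to 9.25 ± 0.20. Both had fallen by 2 h and had their lowest mean at 3 h. Med31, of the Mediator complex, and Nabp1, a single-stranded DNA-binding protein of DNA repair, moved at 3 h, by -0.44 and -0.40 from 0 h, while their 2 h and 6 h means lay between -0.04 and 0.02 from baseline. Med31 was also at -0.18 at 1 h, and Nabp1 at -0.25 at 24 h.

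**Figure D4:**
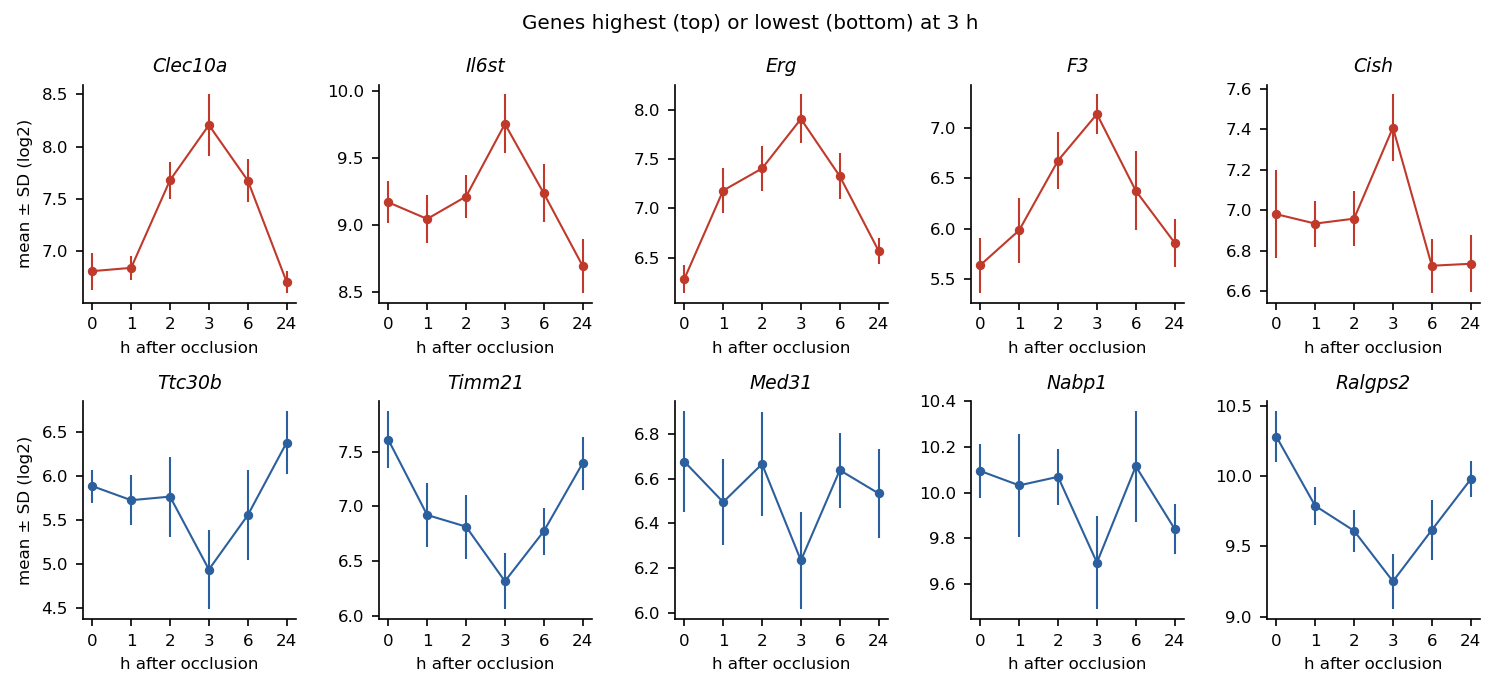
Authors' mean ± SD (log2 RMA signal; 8 arrays per time point, 7 at 6 h) over the time points, evenly spaced on the axis and not to scale in time, for the 5 genes highest (top, red) and the 5 lowest (bottom, blue) at 3 h. Il6st peaks and Med31 and Nabp1 dip at 3 h with their neighbours near the 0 h mean, Cish peaks there with a 6 h mean below that of 0 h, and Erg, F3, Timm21 and Ralgps2 had moved before 3 h; the vertical axes differ.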

How the data were processed

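Blood cell RNA was measured on Affymetrix RatGene 1.0 ST arrays. The authors deposited 1 table of log2 values per probe set, made by RMA (background correction, quantile normalization and summary of probes), with their mean and SD over the arrays of each time point and gene annotation on rn5. The submitters' processing notes name limma. The table also holds the authors' comparisons (fold changes, p-values and FDRs), which were not used, and 47 columns of single arrays, named by number, which the labels do not tie to a rat and time point and which were not used either. The study randomized samples to batches, which the labels do not give. No depth applies: the number of arrays limits the precision.

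From means, SDs and array numbers, a moderated test (squeezeVar of limma 3.58.1, R 4.3.3) was computed, two-sided, with the variance pooled over the 6 time points (41 residual and 5.71 prior degrees of freedom) and Benjamini-Hochberg adjustment over 27596 probe sets. It assumes plain averages and SDs, which the table does not state, and independent arrays, although the same rats gave both samples. Tested on simulated data for the comparison of 3 h with 0 h over 27596 probe sets, it called 190 of 200 changed ones. Of its calls 5.00% were false. With 12835 probe sets called in the data, this does not give the share of false calls among them. Simulated arrays also cannot show whether the real arrays met the assumptions. A gene with several probe sets was represented by that with the highest mean. Genes were named from the 12 largest rises and falls among called probe sets with a symbol, the 3 largest called changes each way per list, the 5 genes highest and lowest at 3 h, and markers that define a cell type, without printing each; further list members are given as examples chosen after their values were seen. The 32 lists and the comparison were chosen with earlier results of these data known. Alternatives were another variance estimate, scaling, filter or threshold. Promoter sequences came from RefSeq (GRCr8), for 14 of 22 and 12 of 20 genes of 2 lists, and no coordinates were moved between builds. The results of some genes are not reported by name here.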

Additional observations from a re-analysis of the deposited data

Results flagged for a closer look

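The results named here differed between 3 h and a neighbouring time point by the test of that difference itself, the moderated test after limma with Benjamini-Hochberg adjustment over all 27596 probe sets. Among the largest rises, the 3 h mean was above the 2 h mean by 0.68 for Hp, 1.51 for Plscr1, 1.89 for Tgm1, 1.07 for Serpinb1a, 0.40 for Nos2 and 0.59 for Prok2. The 3 h minus 6 h difference was -0.63 for Tgm1, -0.81 for Ifitm6, -0.78 for Serpinb1a and -0.64 for Prok2.

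Among the largest falls, the 3 h mean was below the 6 h mean, with 3 h minus 6 h differences of -0.52 for Ebf1, -0.55 for Ms4a1, -0.48 for Cd79b, -0.45 for Nrp1, -0.32 for Fcmr, -0.54 for Bank1 and -0.54 for Igd.

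The 5 genes highest at 3 h differed from 2 h and 6 h by 0.53 and 0.53 for Clec10a, 0.54 and 0.52 for Il6st, 0.50 and 0.58 for Erg, 0.46 and 0.76 for F3, and 0.45 and 0.68 for Cish. The 5 lowest differed by -0.83 and -0.62 for Ttc30b, -0.50 and -0.46 for Timm21, -0.43 and -0.40 for Med31, -0.38 and -0.42 for Nabp1, and -0.36 and -0.36 for Ralgps2. These 10 genes were chosen by the same differences.

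In 6 lists at least 5 members differed in 1 direction. Against 6 h, 5 of 20 B cell genes were lower at 3 h and 0 higher, 6 of 25 glycolysis and glycogen genes lower and 0 higher, and 5 of 84 respiratory chain genes lower and 3 higher, while 6 of 16 erythroid genes were higher and 0 lower, and 14 of 26 interferon response genes higher and 1 lower. Over all probe sets 2.44% were higher and 2.34% lower than at 6 h. Against 2 h, 5 of 22 glucocorticoid response genes and 5 of 26 interferon response genes were lower and 1 of each list higher, beside 1.62% lower and 1.90% higher over all probe sets.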

How the results depend on the processing

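No paired analysis was possible because the single-array columns are numbered and no label ties a number to a rat, and for the same reason no single rat could be left out. Of 7539 probe sets called higher and 5296 called lower than at 0 h, 1164 and 1769 passed Bonferroni adjustment, and 919 and 1949 had a change of at least 0.5. For 3 h against 2 h, 79 of 525 higher and 70 of 448 lower passed Bonferroni. For 3 h against 6 h, 54 of 674 and 86 of 645 did, and 341 and 396 were called with the SDs of the 2 time points compared alone. Over the genes of the lists, 185 probe sets were higher and 235 lower, and 91 and 99 after Bonferroni. Of the 174 named genes none changed direction, and 169 were still called after centring, 168 after quantile normalization and 171 with the SDs of 0 h and 3 h alone. Lost under 1 or 2 of these were Cdh5, Col3a1, Gfap, Hspa5, Il18bp, Itga2b, Nfkbie, Nr4a2, Ptger4, S100b and Trim58. Of 64 list counts, 57 stayed within 1.5 times the count after centring and 57 after quantile normalization, and 42 did not under Bonferroni. The causes of these differences were not tested. Differences of low-signal probe sets were not set against a background level, which the means do not give.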
